A study of Schizosaccharomyces pombe with 16 samples.

Results

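Among the mRNAs recovered with Zfs1 in fission yeast, 5 were examined one by one because they combined a high IP/input ratio in the Zfs1 immunoprecipitation with a small change of mRNA level when zfs1 was deleted. These were mug9 (SPCC70.09c), ctu2 (SPBC19C2.13c), sul1 (SPBC3H7.02), ppk1 (SPAC110.01) and jmj2 (SPAC1002.05c), 5 of the 7018 transcripts in the tables. Because they were picked by these 2 ratios, their Zfs1 IP/input and zfs1Δ/WT values are given as a description, without a test. Their behaviour in the mock immunoprecipitation, their sequences and the genes of their pathways were not used in the choice. The lists of these other genes were, however, drawn up with earlier results of these data known.

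RNA immunoprecipitation followed by sequencing (RIP-Seq) gave an IP and an input library in each of 3 experiments for a zfs1-TAP::kanMX6 h- strain, in which the zfs1 gene carries an affinity tag, and for a GFP-TAP mock strain (leu1Δ::[Pnmt1-gfp-TAP-Tnmt1 ura4+] ura4-D18 h+), in which the tagged GFP is made from the nmt1 promoter at the leu1 locus. The mock strain therefore differs from the Zfs1-TAP strain in mating type, leu1 and ura4 as well as in the tagged protein. RNA-Seq compared total RNA of a wild type (WT) and a zfs1Δ strain in 2 experiments each, and the full genotypes of these 2 strains are not given in the sources used here. All cells were dividing in Edinburgh minimal medium (EMM) at 25°C.

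Zfs1 is a zinc-finger protein of the tristetraprolin family, whose members bind AU-rich elements in mRNAs and bring in the machinery that shortens the poly(A) tail and degrades the message. A bound transcript of this kind is usually expected to accumulate when the protein is missing. The typical element is a nonamer, and in animals it is best known from the 3′ untranslated regions (UTRs) of cytokine mRNAs.

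The nonamer TTATTTATT was looked for along each annotated mRNA, in the sense direction only (RefSeq, assembly ASM294v3), along with the heptamer TATTTAT and the pentamer ATTTA that lie inside it. It was present in ctu2, sul1 and ppk1 and absent from the annotated mug9 and jmj2 transcripts, whereas 11.5% of the 4905 protein-coding transcripts tested held at least 1 copy. The stretches that hold the nonamer are shown here to compare its setting, each of 30 nt in the 5′ to 3′ direction of the mRNA with the motif in capitals. For mug9, which has no annotated 3′ UTR, the stretch comes from the genome downstream of the annotated end, and its annotated 5′ UTR adds a heptamer.
ctu2, 5′ UTR, chrII:1702033-1702062, minus strand: tctcttaaacTTATTTATTtatacggataa
ppk1, 5′ UTR, chrI:1908233-1908262, plus strand: ttctgaatctTTATTTATTgcttttcttca
sul1, 3′ UTR, chrII:1884284-1884313, minus strand: aaacatatTTATTTATTTATTttgcatatt
mug9, downstream of the annotated end, chrIII:2368942-2368971, minus strand: cgatatctatTTATTTATTtctttaaactg
mug9, 5′ UTR, heptamer, chrIII:2369812-2369841, minus strand: ttctaaagtttTATTTATccaggaattgat

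In ctu2 and ppk1 the nonamer lay in the 5′ UTR, a region where 2.53% of the 4905 transcripts held it. In ppk1 it ended 16 nt before the coding sequence, and in ctu2 it ended 70 nt before it. In sul1, 2 overlapping copies began 59 nt after the end of the coding sequence, in the 3′ UTR, where 5.77% of transcripts held the motif. The site next to mug9 began 147 nt past its annotated end, within a window of 500 nt in which 8.09% of the 272 genes with no annotated 3′ UTR held a nonamer. Whether the mug9 mRNA extends that far is not known from these files. The 500 nt upstream of jmj2, which has no annotated 5′ UTR, held 0 nonamers and 2 heptamers, and 5.35% of the 430 genes of this kind had a nonamer there. The heptamer was found in 4 of the 5 transcripts against 43.3% of all, and the pentamer in 5 of 5 against 95.0%. A match is a description of the sequence and not a measured binding site.

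The transcripts differed widely in layout. The ppk1 mRNA (chrI:1907055-1911747, plus strand, 1 exon, 4693 nt) had a 5′ UTR of 1213 nt, longer than in 99.3% of protein-coding transcripts, and a 3′ UTR of 408 nt. The sul1 mRNA (chrII:1884123-1887703, minus strand, 1 exon, 3581 nt) had a 5′ UTR of 705 nt, longer than in 96.9%, and a 3′ UTR of 242 nt. The median 5′ UTR over the 4905 was 84 nt and the median 3′ UTR 250 nt, so of the 2 UTRs the 5′ one was unusually long in both. Their coding sequences, 3072 nt in ppk1 and 2634 nt in sul1, were also longer than the median of 1167 nt. As whole transcripts they were longer than 96.4% and 90.5% of the 4905. The motif shares above were not adjusted for length. The ctu2 mRNA (chrII:1700751-1702117, minus strand, 1 exon, 1367 nt) had UTRs of 144 nt and 122 nt. The jmj2 transcript (chrI:1804548-1806797, minus strand, 1 exon, 2250 nt) had a 3′ UTR of 102 nt, and mug9 (chrIII:2369108-2369852, minus strand, 2 exons, 689 nt) a 5′ UTR of 62 nt. The missing UTRs of mug9 and jmj2 make the motif counts of these transcripts lower limits.

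**Figure D1:**
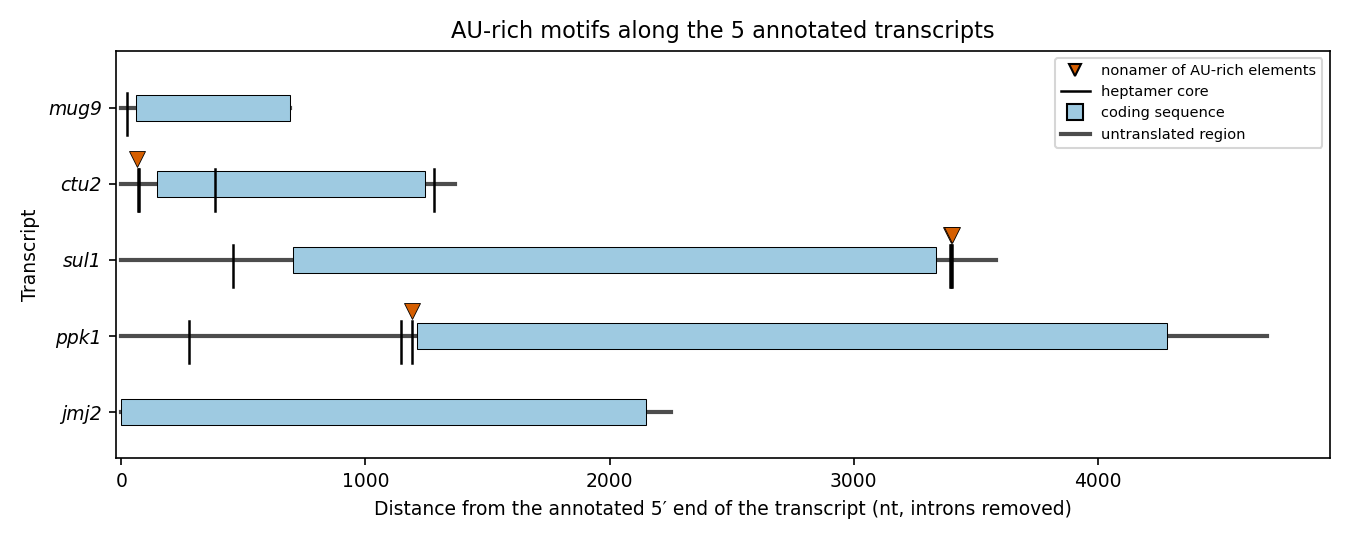
Map of the 5 annotated transcripts, with the distance from the 5′ end in nt on the x axis. Boxes are coding sequences, lines untranslated regions, triangles the nonamer and ticks the heptamer. The nonamer lies in the 5′ UTR of ctu2 and ppk1 and in the 3′ UTR of sul1, where 2 overlapping copies appear as 1 triangle. No nonamer lies in the annotated mug9 or jmj2.

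The values are read counts that the authors normalized, and the number of reads behind them is unknown. The normalized counts of a library summed to between 8042875 and 72878501 in the RIP-Seq and between 42446075 and 47945097 in the RNA-Seq. The inputs of experiment 1 stood apart, with ribosomal RNA making up 72.1% of the Zfs1 input and 34.7% of the GFP input, against at most 5.87% in the other 10 RIP-Seq libraries. In the Zfs1 comparison the median log2 IP/input ratio over all transcripts was -1.5 in experiment 1 and 0.14 and 0.10 in experiments 2 and 3. The zfs1 gene itself had 10098 and 10660 normalized counts in WT and 6169 and 5866 in zfs1Δ, which is lower but not 0. The leu1 gene, replaced in the mock strain, had 430, 460 and 478 normalized counts in the GFP inputs against 5356 to 11183 in the Zfs1 inputs.

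The sul1 gene encodes a sulfate transporter of the plasma membrane. It had 4448, 2454 and 1906 normalized counts in the Zfs1 inputs of experiments 1 to 3 and 66143, 91344 and 39459 in the Zfs1 IPs. Every IP value exceeded every input value many times over. The log2 IP/input ratios were 3.89, 5.22 and 4.37, with a mean of 4.49 ± 0.67 (SD, n = 3) or 22.5-fold. Per kilobase of transcript, sul1 was already above 74.6% ± 4.5 (SD, n = 3) of protein-coding transcripts in the inputs and rose above 99.7% ± 0.23 of them in the IPs. It was thus one of the main protein-coding mRNAs of the Zfs1 precipitate, at position 7, 17 and 30 from the top in the 3 IPs.

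The ppk1 gene encodes a serine/threonine protein kinase. It had 1654, 1242 and 1183 normalized counts in the Zfs1 inputs and 13551, 41407 and 36216 in the Zfs1 IPs. The IP of experiment 1 was low against the other 2, and the log2 ratios of 3.03, 5.06 and 4.94 (mean 4.34 ± 1.14, SD, n = 3, 20.3-fold) had the same order. Against the median of all transcripts in its own experiment, ppk1 was at 4.53, 4.92 and 4.83 on the log2 scale, so that the low value of experiment 1 went with the low median of that experiment. Per kilobase it was above 39.4% ± 15.9 of protein-coding transcripts in the inputs and above 97.6% ± 1.9 in the IPs.

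The ctu2 gene encodes a subunit of the cytosolic thiouridylase, which together with Ctu1 adds sulfur to the wobble uridine of certain tRNAs. It had 69.5, 70.7 and 76.3 normalized counts in the Zfs1 inputs and 2247, 1716 and 1685 in the Zfs1 IPs. The log2 ratios of 5.0, 4.58 and 4.45 (mean 4.68 ± 0.29, SD, n = 3, 25.5-fold) were close to each other, but relative to the median of each experiment they were 6.50, 4.44 and 4.35 (SD 1.22), so that the evenness depended on the scale. A message from the lowest part of the transcriptome, above 8.61% ± 2.85 of protein-coding transcripts in the inputs per kilobase, stood above 84.5% ± 5.3 in the IPs.

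The mug9 gene belongs to the meiotically upregulated genes, a set named for expression during meiosis, and its product has no assigned function in the annotation. It had 31.3, 21.0 and 23.8 normalized counts in the Zfs1 inputs and 706, 3093 and 1267 in the Zfs1 IPs. Its log2 ratios of 4.46, 7.14 and 5.67 had a mean of 5.75 ± 1.34 (SD, n = 3, 54.0-fold), position 11 of 5929 transcripts. The spread came from the IPs, which differed more than the inputs did, and the order of the mean ratios of mug9, ctu2, sul1 and ppk1 was within their SDs. The low input counts leave the mug9 ratio the least certain in size.

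The jmj2 gene encodes a histone demethylase of the jumonji type that acts on histone H3 lysine 4. It had 584, 84.2 and 62.7 normalized counts in the Zfs1 inputs and 2115, 1022 and 949 in the Zfs1 IPs. Both values of experiment 1 were high, and the log2 ratios were 1.85, 3.59 and 3.9 (mean 3.11 ± 1.1, SD, n = 3, 8.65-fold). The high input of experiment 1 was also seen in the mock strain, where jmj2 had 294 normalized counts against 96.7 and 92.3, and it remained when ribosomal reads were left out, with 28.7 and 32 CPM (the count scaled to a common library total) in the experiment 1 inputs of the 2 strains against 7.32 to 12.1 in the other inputs. Relative to the median of each experiment the 3 jmj2 ratios were 3.36, 3.44 and 3.8. At position 165 of 5929, jmj2 was the weakest bound of the 5.

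**Figure D2:**
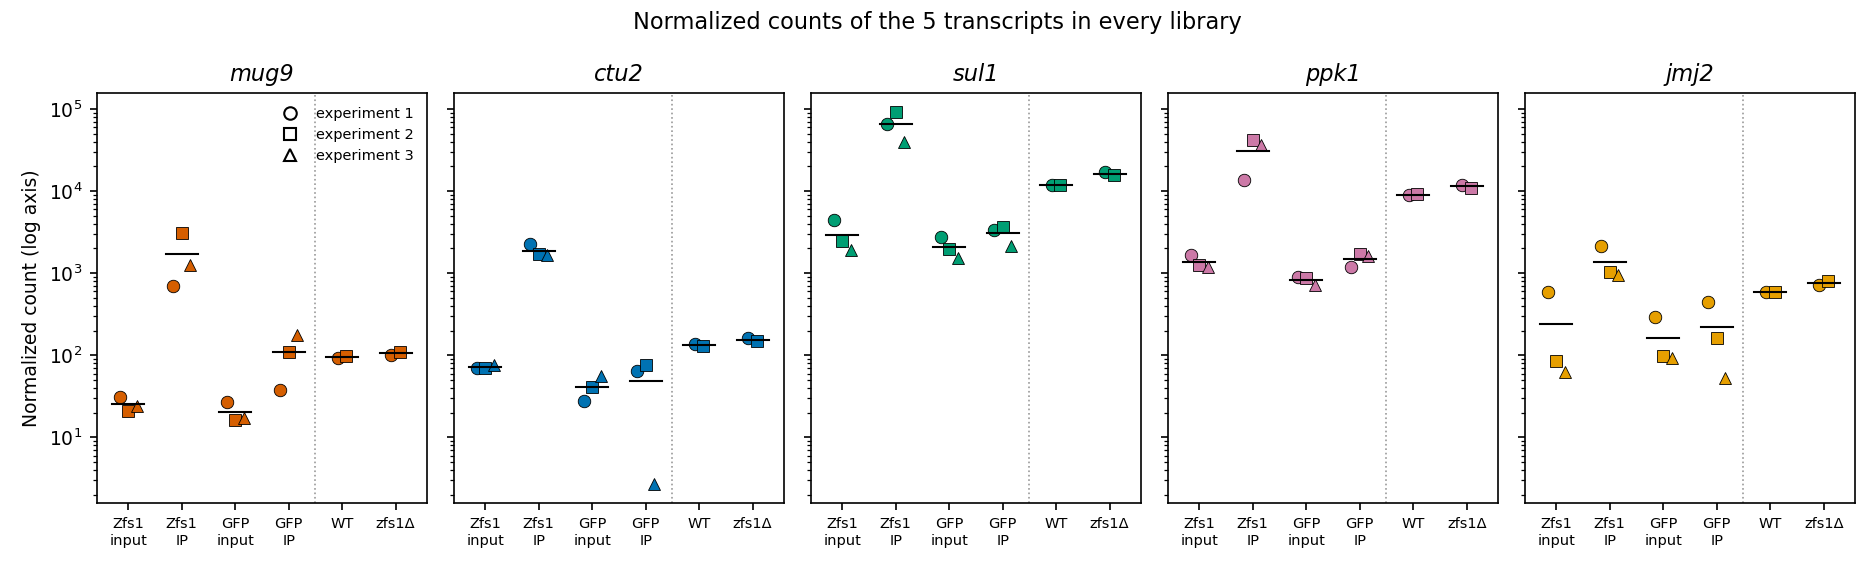
Normalized counts of the 5 transcripts in all 16 libraries, on a log axis. Each point is a library, with the shape giving the experiment, and the black line is the mean of the group. The dotted line separates RIP-Seq from RNA-Seq, which were normalized separately. In each panel all 3 Zfs1 IPs lie above all Zfs1 inputs and all GFP IPs, and the zfs1Δ libraries lie slightly above WT. The GFP IP of experiment 3 is the low point of ctu2.

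In all 5 transcripts the 3 Zfs1 IP values exceeded the 3 Zfs1 input values, which was true of 13.1% of the transcripts tested. They also exceeded the 3 GFP IP values in 5 of 5, against 26.0% of transcripts. The choice by a high Zfs1 IP/input ratio favoured both separations, so they are a description only. The lowest Zfs1 IP was 21.8 times the highest GFP IP for ctu2, 10.7 times for sul1, 7.91 times for ppk1, 3.96 times for mug9 and 2.14 times for jmj2. An IP-enriched list was formed here with criteria patterned on the methods of the study, and it is not the study's own list. It took the transcripts with a mean log2 IP/input ratio above the mean plus 2 SD of all (here 2.93, or 7.61-fold). They also had no 0 value in 2 or more IP or input libraries and a mean of at least 100 CPM over the 3 Zfs1 IPs. The ratio alone was past the limit in 3.76% of the 5929 transcripts tested. The list held 148 of them (2.5%) and all 5 described here, which the choice by the same ratio favoured. Within it mug9 was at position 2 by IP/input ratio, ctu2 at 6, sul1 at 11, ppk1 at 12 and jmj2 at 104. The transcript just inside the limit was lsd90 at 2.93 and the one just outside was SPAC24H6.13, also at 2.93.

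The GFP-TAP mock experiments show how far these RNAs were recovered with tagged GFP in place of tagged Zfs1. Since these experiments played no part in the choice, they were tested. The mock strain still expressed zfs1, with 1016 to 1477 normalized counts in its inputs. The mug9 transcript had 27.2, 16.4 and 17 normalized counts in the GFP inputs and 37.6, 110 and 178 in the GFP IPs. All 3 IPs were above all inputs. The log2 ratio of 2.14 ± 0.60 (SE, n = 3; SD 1.5) was higher than that of 99.2% of the transcripts tested, but did not pass the limma test (adjusted p = 0.141). When the variance was allowed to follow the mean level, the same value passed with an adjusted p of 0.0329. Without experiment 1, in which the GFP ratio of mug9 was 0.45 on the log2 scale against 2.66 and 3.31, the mean was 2.99 and the adjusted p 0.0281.

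The ppk1 mRNA had 896, 865 and 720 normalized counts in the GFP inputs and 1188, 1714 and 1599 in the GFP IPs, again with no overlap. Its log2 ratio of 0.85 ± 0.33 (SE, n = 3; SD 0.39) had an adjusted p of 0.199 in limma and of 0.0328 with the variance trend. With libraries scaled to equal totals outside ribosomal RNA its ratio was 0.39. For both mug9 and ppk1 all GFP IPs were above all GFP inputs, as in 17.0% of the transcripts tested, and with all 3 experiments neither passed the test unless the variance trend was used.

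For the other 3 transcripts the GFP IPs and inputs overlapped. The sul1 mRNA had 2757, 1964 and 1543 normalized counts in the GFP inputs and 3390, 3691 and 2149 in the GFP IPs, a log2 ratio of 0.56 ± 0.32 (SE, n = 3, limma adjusted p = 0.321) that was above 0 in 3 of 3 experiments. The jmj2 transcript had 294, 96.7 and 92.3 in the inputs and 444, 161 and 52.3 in the IPs, a log2 ratio of 0.17 ± 0.42 (SE, n = 3, adjusted p = 0.828), which turned negative, to -0.087, with libraries scaled to equal totals. It was 0.66 without experiment 3, -0.041 without experiment 1 and -0.11 without experiment 2. For ctu2 the inputs were 27.9, 40.9 and 55.4 and the IPs 64.3, 77.2 and 2.70. The last value decided its direction, because the log2 ratio of -0.62 ± 1.03 (SE, n = 3, adjusted p = 0.734) became 1.04 without experiment 3.

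Of the 5 transcripts, 0 passed the limma test in the mock IP, against 0.034% of 5887 transcripts called higher and 0.17% called lower, and 2 had an unadjusted p under 0.05, both higher, where 713 of all transcripts were higher and 695 lower at that level. With the variance trend 2 of 5 were higher, against 11.1% of all transcripts higher and 7.3% lower. The mean Zfs1 ratio exceeded the mean GFP ratio by 5.29 log2 units for ctu2, 3.93 for sul1, 3.61 for mug9, 3.49 for ppk1 and 2.94 for jmj2. These differences were not tested, since the Zfs1 ratio was used in the choice. The first place of ctu2 rested on its low GFP IP of experiment 3. Without that experiment the mean Zfs1 and GFP ratios were 4.79 and 1.04 for ctu2, 4.56 and 0.60 for sul1 and 5.80 and 1.56 for mug9, and ctu2 no longer led.

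**Figure D3:**
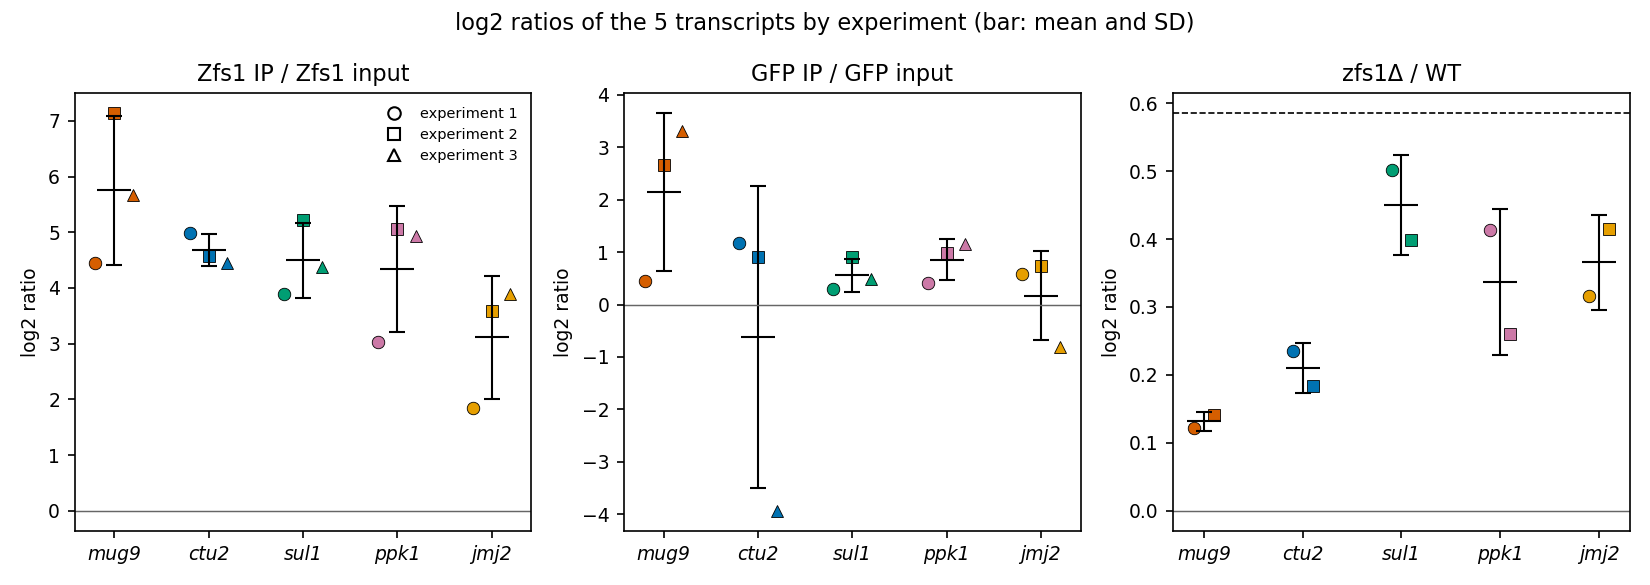
log2 ratios of the 5 transcripts in each experiment for Zfs1 IP against input, GFP IP against input and zfs1Δ against WT, with the mean and SD in black (n = 3, 3 and 2). The scale of the y axis differs between panels, and the dashed line in the right panel marks 1.5-fold. The Zfs1 ratios run from 1.85 to 7.14, the GFP ratios of ctu2 and jmj2 lie on both sides of 0, and all zfs1Δ ratios lie between 0.12 and 0.50.

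In the zfs1Δ libraries, which still held 6169 and 5866 normalized counts of zfs1 with no value for the deleted stretch alone, the 5 mRNAs were 1.1 to 1.37 times their WT normalized counts. More mRNA per cell and more cells that contain the mRNA cannot be told apart in total RNA. The sul1 mRNA had 11935 and 11760 normalized counts in WT and 16901 and 15497 in zfs1Δ, log2 ratios of 0.50 and 0.40 (mean 0.45 ± 0.07, SD, n = 2, 1.37-fold). The jmj2 mRNA had 582 and 598 in WT and 725 and 797 in zfs1Δ, a mean log2 ratio of 0.37 ± 0.07 (1.29-fold). The ppk1 mRNA had 8827 and 9209 in WT and 11754 and 11034 in zfs1Δ, a mean log2 ratio of 0.34 ± 0.11 (1.26-fold). In these 3, as in ctu2 and mug9 below, the gap between the strains was larger than the difference between the experiments of a strain.

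The 2 scarcer mRNAs moved less. The ctu2 mRNA had 137 and 129 normalized counts in WT and 161 and 147 in zfs1Δ, a mean log2 ratio of 0.21 ± 0.04 (SD, n = 2, 1.16-fold). The mug9 mRNA had 93.3 and 98.9 in WT and 102 and 109 in zfs1Δ, a mean log2 ratio of 0.13 ± 0.01 (1.1-fold). For mug9 the difference of the means, 9.31 normalized counts, was not far from the 5.57 by which the 2 WT libraries differed.

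By normalized counts both zfs1Δ libraries exceeded both WT libraries in 5 of 5 transcripts, but this was so in 47.9% of the 5177 tested, and the median log2 ratio of all was 0.05. None of the 5 reached 1.5-fold (0.58 on the log2 scale), against 4.23% of all transcripts, as the choice required. The small rises depended on the scaling. As CPM of the whole library, the mug9 values were 2.20 and 2.20 in WT and 2.12 and 2.37 in zfs1Δ, and those of ctu2 were 3.22 and 2.88 against 3.37 and 3.19. In both cases the strains overlapped. The sul1, ppk1 and jmj2 values stayed apart on this scale, with 262 to 281 CPM against 336 to 353 for sul1, 205 to 208 against 239 to 245 for ppk1 and 13.3 to 13.7 against 15.1 to 17.3 for jmj2. Such a separation held for 28.1% of all transcripts by CPM. With libraries of equal totals the log2 ratios were 0.34 for sul1, 0.26 for jmj2, 0.23 for ppk1, 0.10 for ctu2 and 0.025 for mug9, while the median of all transcripts fell by 0.11.

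The description of these mRNAs as barely rising therefore holds unevenly. The sul1 ratio was above that of 92.5% of all transcripts, the jmj2 ratio above 89.2%, the ppk1 ratio above 87.5%, the ctu2 ratio above 76.4% and the mug9 ratio above 65.7%. Among the 139 IP-enriched transcripts tested in the deletion, sul1 was at position 70 from the lowest, which is the median of the list (0.45). The jmj2 transcript was at 57, ppk1 at 51, ctu2 at 33 and mug9 at 27. Of the 139, 55 were past 1.5-fold and 84 (60.4%) were not, while 4.23% of all 5177 transcripts were past it. Within the list, a high IP/input ratio without a 1.5-fold rise was thus the more frequent case. The median log2 ratio of the 84 was 0.30, against 0.05 over all transcripts. In the list the nearest transcripts on either side of the 1.5-fold limit were for3 at 0.56 and SPBC14F5.10c at 0.59.

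The 4 transcripts that the study set side by side as Zfs1 targets give a scale. The mean log2 IP/input ratio was 4.12 for puc1, 4.55 for cbf12, 5.02 for ecl3 and 5.13 for arz1, in the range of mug9, ctu2, sul1 and ppk1. Their zfs1Δ/WT log2 ratios were 0.72, 1.12, 1.33 and 2.31. The highest of the 5 described here, 0.45 for sul1, was below the lowest of these 4, as the choice would make it. Of the bound transcripts not past 1.5-fold, mug9 had the highest IP/input ratio, followed by cdr1 (4.97, zfs1Δ/WT 0.33), ctu2, pyp2 (4.55, 0.43), sul1 and ppk1.

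**Figure D4:**
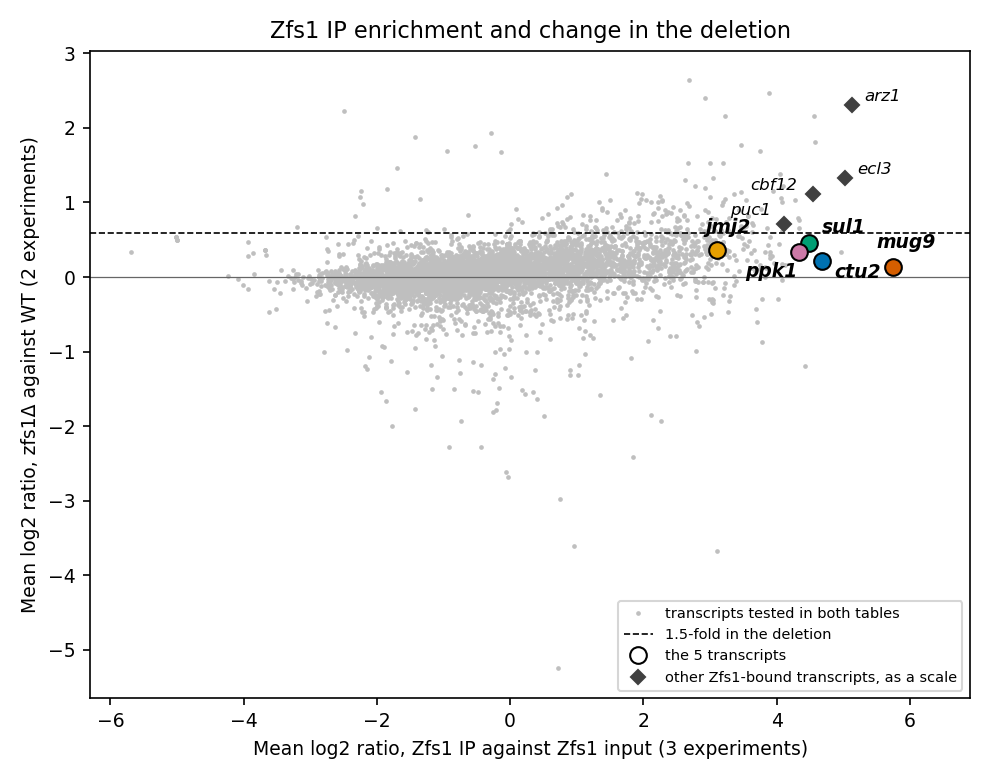
Mean log2 ratio of Zfs1 IP against input (x axis, 3 experiments) and of zfs1Δ against WT (y axis, 2 experiments) for each transcript tested in both tables. Coloured points are the 5 transcripts and dark diamonds are puc1, cbf12, ecl3 and arz1. The dashed line marks 1.5-fold. The 5 lie between 3.11 and 5.75 on the x axis and between 0.13 and 0.45 on the y axis, below the 4 diamonds at 0.72 to 2.31.

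The position of the nonamer was compared between bound transcripts on either side of the 1.5-fold limit, as a description. Of 77 protein-coding IP-enriched transcripts not past the limit, 47 (61.0%) held a nonamer somewhere, 22 (28.6%) in the 5′ UTR and 16 (20.8%) in the 3′ UTR. Of 55 past the limit, 38 (69.1%) held one, 11 (20.0%) in the 5′ UTR and 26 (47.3%) in the 3′ UTR. The ctu2 and ppk1 mRNAs, with the motif before the coding sequence alone, and sul1, with it in the 3′ UTR alone, stand for both placements within the first group. The median 5′ UTR was 362 nt in the first group and 218 nt in the second, against 84 nt over all protein-coding transcripts, and the median IP/input ratios were 3.29 and 3.47 on the log2 scale.

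In WT cells the order of the 5 levels per kilobase, in CPM outside ribosomal RNA, was sul1 (78.3 ± 3.1, SD, n = 2), ppk1 (45.5 ± 0.016), jmj2 (6.20 ± 0.070), mug9 (3.30 ± 0.038) and ctu2 (2.31 ± 0.16). Each neighbouring pair was further apart than its SDs. On the same scale in the Zfs1 IPs, sul1 had 1641 ± 528 (SD, n = 3), ppk1 565 ± 225, mug9 207 ± 119, ctu2 128 ± 42 and jmj2 58.0 ± 36.6. The mug9 and ctu2 values lay within their SDs of each other, and jmj2 had moved from the third place to the last.

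Genes of the pathways of ctu2, sul1 and jmj2, and genes of the name series of ppk1 and mug9, were grouped in lists and tested. The lists leave out the 5 themselves. They were chosen with earlier results of these data known, so their p-values are not those of a choice made blind. Over all transcripts, 28.0% were higher and 13.9% lower in zfs1Δ (limma, adjusted p under 0.05; 1447 and 719 of 5177), while the Zfs1 IP comparison called 10.3% enriched and 10.8% depleted (608 and 641 of 5929). With the variance trend the shares were 30.9% and 13.7% in zfs1Δ and 9.6% and 10.6% in the Zfs1 IP. This balance depended on the scaling. Libraries of equal totals gave 905 higher and 1492 lower in zfs1Δ and 943 enriched and 197 depleted with Zfs1. With no filter on low values 246 higher and 166 lower calls were left in zfs1Δ, and sul2 was then the only gene called in the lists of ctu2, sul1 and jmj2.

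For ctu2 the list held the thiolation and Elongator genes that modify the wobble uridine of tRNAs. In zfs1Δ, 5 of 12 were higher and 0 lower in limma (at an unadjusted p under 0.05 also 5 and 0, and 4 and 0 with the variance trend), and the median log2 ratio of 0.07 was close to the 0.05 of all transcripts. With equal totals the counts were 2 and 2. The partner subunit ctu1 had a zfs1Δ/WT log2 ratio of 0.05 ± 0.07 (SE, n = 2, adjusted p = 0.599) and a Zfs1 IP/input ratio of 1.42 ± 0.74 (SE, n = 3, adjusted p = 0.157). In the Zfs1 comparison limma pooled the variance over all transcripts, so the SE of 0.74 is the same for every gene. The sulfur carrier urm1 was higher in zfs1Δ by 0.33 ± 0.09 (adjusted p = 0.00672), though its experiments gave 0.59 and 0.06, and the call was lost in every alternative in which lists were counted except equal totals. In the Zfs1 IP 1 of 13 genes of the list was higher and 0 lower (2 and 1 at an unadjusted p under 0.05, and 1 and 1 with the variance trend). With equal totals 4 were higher and 0 lower, and with median centring or equal totals outside ribosomal RNA 5 and 3.

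For sul1 the list held genes of sulfate uptake and assimilation. In zfs1Δ 7 of 13 were lower and 3 higher, and with equal totals 8 were lower and 3 higher. The other sulfate transporter gene, sul2, named here after its values were seen, fell by 1.14 ± 0.08 on the log2 scale (SE, n = 2, limma adjusted p = 3.28e-10), opposite to the sul1 value. The sulfite reductase gene sir1 fell by 0.45 ± 0.07 (adjusted p = 2.02e-05), the adenylylsulfate kinase gene met14 by 0.32 ± 0.07 (adjusted p = 0.000745) and the sulfate adenylyltransferase gene sua1 by 0.23 ± 0.07 (adjusted p = 0.0109). The reductase gene met16 was higher by 0.31 ± 0.07 (adjusted p = 0.00112). In the Zfs1 IP 0 of 13 were higher (also 0 at an unadjusted p under 0.05 and with the variance trend) and 1 lower, with a median log2 ratio of -1.11 against -0.44 for all transcripts, and with equal totals 0 were higher and 0 lower. With libraries centred on their medians the counts were 2 higher and 7 lower.

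For jmj2 the list held the jumonji proteins and the writers and erasers of histone H3 lysine 4 methylation. In zfs1Δ 5 of 15 were higher and 1 lower, with a median log2 ratio of 0.05, and with equal totals 3 were higher and 2 lower. The demethylase gene lid2 had a zfs1Δ/WT log2 ratio of -0.0040 ± 0.067 (SE, n = 2, adjusted p = 0.973), jmj1 0.05 ± 0.07 (adjusted p = 0.598), lsd1 0.02 ± 0.07 (adjusted p = 0.853) and the methyltransferase gene set1 0.25 ± 0.07 (adjusted p = 0.00566). The set1 call was lost under each of the 3 other scalings. The Zfs1 IP/input ratios of these 4 lay between -0.97 and 0.73 on the log2 scale. In the Zfs1 IP 3 of 16 were higher and 0 lower (3 and 1 at an unadjusted p under 0.05 and, adjusted, with the variance trend). The 3, named after their values were seen, were spf1 with a log2 ratio of 2.73 ± 0.74 (SE, n = 3, limma adjusted p = 0.00314), msc1 with 2.52 ± 0.74 (adjusted p = 0.00681) and the jumonji gene jmj4 with 2.18 ± 0.74 (adjusted p = 0.0212). This SE is the pooled one. By experiment the ratios were 1.19, 3.79 and 3.20 for spf1, 1.92, 3.22 and 2.42 for msc1 and 0.62, 3.33 and 2.59 for jmj4. With libraries centred on their medians the counts were 7 higher and 4 lower, and with equal totals outside ribosomal RNA 5 and 5.

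For ppk1 the list held the other genes of the ppk kinase series, a name given to predicted protein kinases and not to a pathway. In zfs1Δ 8 of 20 were higher and 2 lower, from ppk33 at -0.47 to ppk8 at 0.71 on the log2 scale, and with equal totals 3 were higher and 6 lower. In the IP with Zfs1, 1 of 21 was enriched and 1 depleted, and ppk8 had a log2 ratio of 2.88. With median centring 8 were enriched and 4 depleted, and with equal totals outside ribosomal RNA 8 and 5. For mug9 the list held the other meiotically upregulated genes, of which 68 of 90 passed the filter in the RNA-Seq. Of these 19 were higher and 17 lower, from mug14 at -2.62 to mug2 at 1.16, with a median of -0.010, and with equal totals 14 were higher and 31 lower. In the IP with Zfs1, 10 of 74 were enriched and 2 depleted, and mug2 had a log2 ratio of 3.94. With median centring the counts were 25 and 14, and with equal totals outside ribosomal RNA 21 and 16.

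The neighbouring genes were examined because ctu2 and sul1 share sequence with genes on the other strand. The ctu2 transcript overlaps mrpl51 by 215 nt and the sul1 transcript overlaps kgd1 by 77 nt, and the authors counted reads by strand. The Zfs1 IP/input log2 ratio was -1.49 for mrpl51 and 1.02 for kgd1, and the zfs1Δ/WT log2 ratios were -0.036 and -0.065. The overlapped genes thus shared neither the enrichment of ctu2 nor the size of that of sul1. The ratios in zfs1Δ of the other measured neighbours lay between -0.16 (SPNCRNA.1473, next to sul1) and 0.21 (pds5, next to ppk1). Beside mug9, the divergent gene SPCC70.10 had a Zfs1 IP/input log2 ratio of 2.55 and a zfs1Δ/WT ratio of 0.17, the nearest to a bound neighbour.

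Transcripts with the most similar values were found by the root mean square difference over the 8 log2 ratios (3 Zfs1, 3 GFP and 2 zfs1Δ/WT) among 5083 transcripts. For ppk1 the nearest were the tyrosine phosphatase gene pyp2 (0.29) and spo5 (0.36), which encodes a meiotic RNA-binding protein, and for sul1 pyp2 (0.36) and the membrane receptor gene wsc1 (0.39), where the median distance to all transcripts was 3.05 and 3.13. For jmj2 they were pop2 (0.34) and prt1 (0.36). The nearest to ctu2 were SPAC2H10.01 (0.73) and mug2 (1.30), and to mug9 cbf12 (1.18) and rod1 (1.25). Against median distances of 3.565 for ctu2 and 4.13 for mug9 these were small, but larger than those of sul1, ppk1 and jmj2. The ctu2 distances include its GFP log2 ratio of -3.93 in experiment 3, where the IP had 2.70 normalized counts. The mug9 neighbours in this measure, cbf12 and rod1, had zfs1Δ/WT log2 ratios of 1.12 and 1.04, far from the 0.13 of mug9.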

How the data were processed

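The authors depleted ribosomal RNA, sequenced strand-specific paired ends, mapped reads with Bowtie 0.12.7, counted them with RSEM 1.1.19 on a PomBase annotation and normalized with edgeR. The deposited values are these normalized read counts (a signal per transcript, not whole numbers), in 2 tables normalized separately. Whole reads could not be recovered, so no count test was used. Here log2(value + 1) was compared with limma 3.58.1 (R 4.3.3, two-sided, Benjamini-Hochberg over all transcripts that averaged 1 CPM or more), with the experiment as a block, as the study paired samples. This scale understates changes of scarce transcripts. Deviations of same-numbered samples correlated at 0.23 to 0.48 (Zfs1), 0.098 to 0.28 (GFP) and -0.066 (zfs1Δ). Those of samples with unlike numbers correlated at -0.49 to 0.32 (Zfs1) and -0.26 to 0.067 (GFP), so the pairing was not clear in every experiment. For zfs1Δ, with 2 experiments, the value for unlike numbers is by construction the same one with its sign reversed (0.066) and adds nothing. The labels name no separate cultures, so p-values measure the spread between these samples only, and with 1 residual degree of freedom in the RNA-Seq that spread was taken mostly from other transcripts. In the Zfs1 comparison limma took the spread from all transcripts together. Each transcript therefore has the same SE of 0.74, which does not measure its own spread between experiments.

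The 5 transcripts and the lists were chosen with earlier results of these data known. Named beside the 5 were puc1, cbf12, ecl3 and arz1, zfs1 and leu1, pathway partners (uba4 was not matched), the extremes by zfs1Δ/WT of the ppk and mug lists, neighbouring genes and the 2 transcripts nearest in pattern. Of 7018 identifiers 6843 matched RefSeq (ASM294v3, Python 3.11.15), whose transcript ends may differ from those the authors used. Alternatives were pseudocounts of 0.5 and 5, filters (none, 10 CPM), scaling to equal totals, median centring, no block, a variance trend, each experiment left out, and other motifs and list limits. Scaling outside ribosomal RNA and the 500-nt flanks were added after the data were seen.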

Additional observations from a re-analysis of the deposited data

How the results depend on the processing

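The 5 transcripts stayed in the IP-enriched list in all alternatives run for it. Where an experiment was left out, however, only the ratio and its limit were recomputed. The 0-value and 100 CPM filters still used all 3 experiments. In the Zfs1 IPs of experiments 1 to 3 jmj2 had 215, 77.0 and 88.9 CPM, above 100 in experiment 1 alone. The mug9 values were 71.7, 233 and 119 CPM. A filter on the remaining experiments was not run. All 5 stayed under 1.5-fold in zfs1Δ in all alternatives that tested them, and the 10 CPM filter did not test mug9 and ctu2. They had Zfs1 IP/input log2 ratios from 2.72 (jmj2) to 6.42 (mug9). A list limit of 2 on the log2 scale gave 381 transcripts in place of 148, and with the pentamer 5 transcripts had a motif in place of 3. Counts over all transcripts moved more. In the mock IP (2 higher and 10 lower) they were 44 and 98 with a pseudocount of 5, 283 and 178 at 10 CPM, and 651 and 430 with a variance trend. Equal totals gave 1 higher, median centring 1 and 6, and equal totals outside ribosomal RNA 1 and 3. Leaving out an experiment gave 0 to 42 higher and 0 to 154 lower, the 0 without experiment 2, where 207 and 534 had an unadjusted p under 0.05. Without the replicate block, that is without the pairing, 4 were higher, and no call on the 5 changed. In the Zfs1 IP (608 and 641) the counts were 943 and 197 with equal totals, 1630 and 2006 with median centring, 1450 and 2260 with equal totals outside ribosomal RNA, and 75 to 2025 and 93 to 1400 without 1 experiment. In zfs1Δ (1447 and 719) they were 246 and 166 with no filter, 403 lower at 10 CPM, 905 and 1492 with equal totals, and 881 and 1239 with equal totals outside ribosomal RNA. With 1 RNA-Seq experiment left out no degrees of freedom remained, so values were computed without a test. The cause of these shifts was not tested. The unknown number of reads limits mug9 and ctu2 most, whose WT counts were about 96.1 and 133.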
